A study of Mus musculus with 15 samples.

Results

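Mammary tumours of female MMTV-PyMT mice collected at the end of nintedanib treatment (4 arrays) were compared with tumours collected before any treatment (T0, 4 arrays), which together are 8 of the 15 arrays of the series. The arrays were chosen by their titles alone. All groups carry the MMTV-PyMT transgene, in which a promoter active in mammary epithelium drives a viral oncogene, so that carcinomas arise in the gland itself and are dissected together with what surrounds them. Treatment began at 7 weeks of age. Nintedanib was given by oral gavage at 85 mg per kg per day. The other groups were tumours at the end of vehicle (3 arrays) and of B20 (4 arrays), an antibody against VEGF injected at 5 mg per kg. The labels used here state neither the length of treatment nor the age at T0, and T0 tumours are not vehicle tumours of the same age. Each difference from T0 therefore joins treatment with the time that passed. Vehicle values against T0 are given for many, but not all, of the genes and lists described. These comparisons share the T0 arrays. No label says whether the 4 samples of a group are 4 animals, and p-values cover the spread between samples alone.

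Nintedanib blocks the kinases of the VEGF, FGF and PDGF receptors, through which tumours recruit endothelial cells, the pericytes that cover vessels and fibroblasts. In the mouse mammary gland the epithelium grows inside a pad of fat cells and, under prolactin signalling, makes milk proteins. A tumour that expands in the gland can hold epithelium, fat, muscle of the body wall, vessels and leukocytes. In RNA from whole tissue, fewer cells of a type and less RNA per cell cannot be told apart.

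The T0 arrays lay on 2 slides of their own, replicates 1 and 2 on one and replicates 3 and 4 on the other, with another scan day and another feature extraction protocol than the other arrays. Slide, scan day and protocol cannot be told apart from the group. Nintedanib replicates 1 to 3 lay on a slide of 8 arrays and replicate 4 on a slide of 3. On T0 replicate 3, 84.18% of probes were well above background, against 53.46% to 68.1% on the other arrays of the series. T0 replicate 4 carries both a label of no treatment and a label of vehicle. Its levels correlated across the genes tested at 0.9572 to 0.9659 with the other T0 arrays and at 0.9587 to 0.9728 with the nintedanib arrays, whereas T0 replicates 1 to 3 correlated at 0.9369 to 0.9614 with the nintedanib arrays. Here it counts as T0 by its title, and counts of calls without it are given for several lists. Krt18, a keratin of luminal cells, was high in both groups, with a mean level of 8.41 in nintedanib tumours and 8.59 in T0 tumours. The mean over a list of luminal epithelial markers was lower, 3.095 in nintedanib tumours and 3.39 in T0 tumours.

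A level is the log2 spot signal relative to the 75th percentile of its array, and a difference is the mean level in nintedanib tumours minus that in T0 tumours, with the SE of the fit. Of 28041 genes or unnamed transcripts tested, 3210 differed (11.4%) at an adjusted p under 0.05 (limma, Benjamini-Hochberg), 1915 of them higher (6.83%) and 1295 lower (4.62%) after nintedanib. With normexp background correction in place of the processed signal, on the same scale, 1133 were higher and 1548 lower, so the share of higher calls fell from 59.66% to 42.26%. Of the called genes, 1188 were at least 2-fold higher and 726 at least 2-fold lower, and 25 were at least 8-fold higher and 91 at least 8-fold lower. The 4 nintedanib levels and the 4 T0 levels did not overlap for 2800 of the 3210, against 16.8% of all genes tested (9.4% higher and 7.45% lower without overlap). By the same fit, 1380 genes differed between vehicle and T0 (4.92%; 2.8% higher and 2.12% lower) and 2672 between B20 and T0 (9.53%; 5.8% higher and 3.73% lower). Between nintedanib and vehicle limma called 0 genes, with a lowest adjusted p of 0.1973. An unadjusted p under 0.05 was found for 1354 of the 28041, no more than that threshold gives with no difference at all. The count against T0 moved with the T0 arrays used: it was 5041 against replicates 1 and 2 alone and 1044 against replicates 3 and 4 alone. It was 1613 without nintedanib replicate 1, 1712 without T0 replicate 1 and 1926 without T0 replicate 2.

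**Figure D1:**
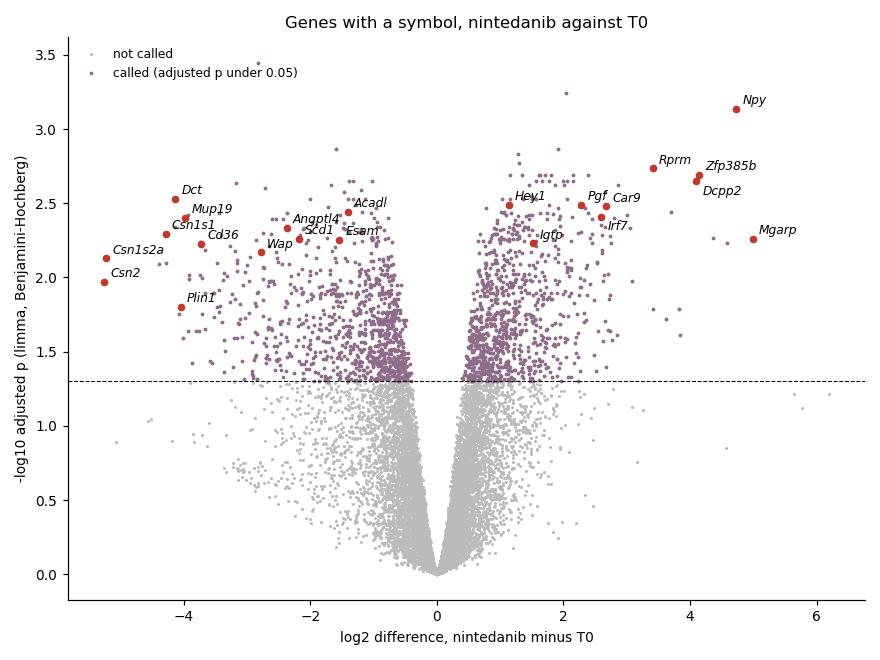
Each point is a gene with a symbol, with the log2 difference between nintedanib and T0 tumours on the horizontal axis and -log10 of the adjusted p on the vertical axis (limma, 4 arrays a group). The dashed line is an adjusted p of 0.05, and labelled genes are among those described in the text. Among the called genes, caseins lie farthest left and Npy and Mgarp farthest right.

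The 12 largest rises among genes with a symbol, with no overlap between the groups and all nintedanib arrays well above background, were Mgarp, Npy, Dcpp1, Dcpp3, Zfp385b, Dcpp2, Olfr1457, Alkal2, Il20ra, Klk6, Krt6b and Rprm. Npy encodes a neuropeptide. Its levels were 1.11, 1.57, 1.66 and 0.82 in the nintedanib tumours and -2.22, -4.37, -4.19 and -2.99 in the T0 tumours. The 2 groups lay far apart, with every nintedanib value above every T0 value. The difference was 4.73 ± 0.45 (SE, adjusted p = 0.000732, limma), and vehicle tumours differed from T0 by 4.35.

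The Dcpp genes encode secreted proteins first described in salivary glands. They are close copies of each other, so their probes may not tell them apart. Dcpp2 stood at -1.01, -0.21, 1.39 and 0.37 after nintedanib and at -4.53, -3.47, -4.46 and -3.40 at T0. Again the groups did not overlap, and nintedanib replicate 3 was the highest array. The difference was 4.10 ± 0.54 (SE, adjusted p = 0.00223, limma), with 4.58 ± 0.82 for Dcpp1 and 4.37 ± 0.76 for Dcpp3. Against T0, vehicle tumours were higher by 4.95 for Dcpp2, 5.07 for Dcpp1 and 4.98 for Dcpp3. In the list of secreted proteins of gland and duct, 3 of 19 members tested rose, which are these Dcpp genes, and 2 fell. Of all genes tested, 6.83% were called higher and 4.62% lower. Since probes of the Dcpp genes may not tell them apart, the 3 rises may not be separate ones.

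Rprm, which arrests the cell cycle downstream of p53, rose from levels of -5.37, -4.14, -3.74 and -4.18 at T0 to -1.09, -0.77, -0.57 and -1.37. All 4 treated tumours were higher than all 4 T0 tumours. The difference was 3.41 ± 0.39 (SE, adjusted p = 0.00184, limma). Its size depends on the background correction: with normexp and quantile normalisation it was 1.58. Rprm was well above background on 3 of 4 T0 arrays. Vehicle tumours lay 2.87 above T0.

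For several of the genes with the largest rises, T0 signals were near background, which makes the size of the change depend on the background correction. Mgarp, a mitochondrial protein of steroid-producing cells and retina, rose by 4.99 ± 0.88, but only 1 of 4 T0 arrays had it well above background, and with normexp and quantile normalisation the difference was 1.78. Zfp385b, a zinc finger protein, rose by 4.14 ± 0.52 on its brightest probe, or by 0.94 under that normalisation, and its other probe differed by 0.95 in the processed signal itself. Il20ra, a receptor chain for cytokines of the IL-20 family, rose by 3.69 ± 0.56, or by 0.93. Each of these 2 genes was well above background on 1 of 4 T0 arrays and on all nintedanib arrays. Krt6b, a stress keratin of epithelia, differed by 3.42 in the processed signal and by 0.68 (adjusted p = 0.291, limma) under normexp and quantile normalisation, and Alkal2, a ligand of the kinase ALK, by 3.82 and 1.82 (adjusted p = 0.0669). The call for Krt6b was also lost without nintedanib replicate 1 (adjusted p = 0.0518). For Klk6, a secreted protease, it was lost without nintedanib replicate 1, T0 replicate 1 or T0 replicate 2 (differences 3.45, 3.04 and 3.06), and for Olfr1457, an olfactory receptor, without any of these or nintedanib replicate 4 (3.95, 3.24, 3.17 and 3.54). Vehicle tumours differed from T0 by 5.04 for Alkal2, 3.67 for Il20ra, 3.59 for Mgarp, 2.14 for Zfp385b, 3.29 for Krt6b and 4.24 for Olfr1457, and by 2.85 for Klk6, which was not called there (adjusted p = 0.094, limma). The other probe of Krt6b differed by 1.22 between nintedanib and T0.

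Milk protein genes fell, and the casein genes Csn2 and Csn1s2a fell most of the genes named here. Of 14 members tested in the list, 7 fell (Csn1s1, Wap, Csn1s2a, Csn2, Lalba, Lao1 and Cel) and 0 rose, against 4.62% of all genes called lower, and the median difference was -1.25 against 0.01 over all genes tested. Upstream sequence is shown for a pair of these genes whose promoters hold the letters of a STAT site (TTCNNNGAA, read on both strands), since prolactin signals to milk genes through STAT5. The windows are the 250 bases before the annotated start (RefSeq, GRCm38.p6), chr5:87699426-87699675 on the minus strand and chr5:87665958-87666207 on the plus strand, written 5′ to 3′ along the gene with the matching letters in capitals.
Csn2: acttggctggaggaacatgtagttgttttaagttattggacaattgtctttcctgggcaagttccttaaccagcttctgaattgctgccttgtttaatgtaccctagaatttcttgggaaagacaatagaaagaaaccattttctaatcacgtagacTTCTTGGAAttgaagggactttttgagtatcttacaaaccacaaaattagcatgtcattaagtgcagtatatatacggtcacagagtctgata
Csn1s1: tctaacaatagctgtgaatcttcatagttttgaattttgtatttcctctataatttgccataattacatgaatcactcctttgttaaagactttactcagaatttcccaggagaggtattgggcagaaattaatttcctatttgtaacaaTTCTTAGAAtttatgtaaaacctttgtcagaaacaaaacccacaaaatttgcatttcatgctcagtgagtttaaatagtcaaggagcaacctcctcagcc
The match starts 93 bases before the start of Csn2 and 100 bases before that of Csn1s1. Of 12 promoters of the 11 list members matched, 3 held these letters (25%), and 7.02% of all 32851 promoters of that length did. This describes the sequence only, and the arrays do not measure binding.

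Csn2 encodes beta-casein, a main milk protein. Its levels were 1.02, 4.82, -0.53 and 2.29 after nintedanib and 6.06, 6.56, 8.56 and 7.44 at T0. The lowest T0 tumour was above the highest treated tumour, and nintedanib replicate 2 was far above the other treated tumours. The difference was -5.25 ± 1.09 (SE, adjusted p = 0.0107, limma), a 38.1-fold lower signal. Csn1s2a, another casein, differed by -5.22 ± 0.98 and Csn1s1, alpha-s1-casein, by -4.28 ± 0.73. Wap, whey acidic protein, stood at 3.27, 4.35, 4.203 and 3.58 after nintedanib against 5.49, 5.77, 7.80 and 7.44 at T0. No value overlapped here either, and the difference was -2.78 ± 0.51 (SE, adjusted p = 0.00678, limma). Against T0, vehicle tumours differed by -5.10 for Csn2, -6.09 for Csn1s2a and -3.18 for Csn1s1, and by -1.76 for Wap, which was not called there (adjusted p = 0.0834, limma). The calls for Csn2, Csn1s2a, Csn1s1 and Wap held without each of the 8 arrays in turn and against either T0 slide alone, although for Wap the difference was -1.78 against T0 replicates 1 and 2 and -3.77 against replicates 3 and 4. In T0 tumours the mean level of the list was 4.47, 4.70, 6.08 and 5.53 in replicates 1 to 4, so the slide of replicates 3 and 4 was the higher one.

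The luminal epithelium around these genes changed in few members. Of 20 luminal markers tested, 0 rose and 2 fell (10%, against 4.62% of all genes called lower). Elf5, the transcription factor of the milk-producing lineage, was at 5.64, 5.87, 5.85 and 6.03 after nintedanib and at 6.41, 6.62, 6.73 and 6.66 at T0. Both groups were narrow and lay apart, and the difference was -0.76 ± 0.16 (SE, adjusted p = 0.0125, limma). Vehicle tumours differed from T0 by -0.45 for Elf5, which was not called (adjusted p = 0.1625, limma). Esr1, the oestrogen receptor, differed by -2.03 ± 0.36 on its brightest probe, but its probes ranged from -2.03 to 0.28. Of 17 basal epithelial markers, 3 fell (17.6%). They were Cdh3, a cadherin (-1.22), Col17a1, a collagen of hemidesmosomes (-1.63), and Oxtr, the oxytocin receptor through which milk is expelled (-1.51). None of these 3 calls held without T0 replicate 1 (differences -1.11, -1.497 and -1.11), T0 replicate 2 or nintedanib replicate 3, and some also fell short without another nintedanib array.

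**Figure D2:**
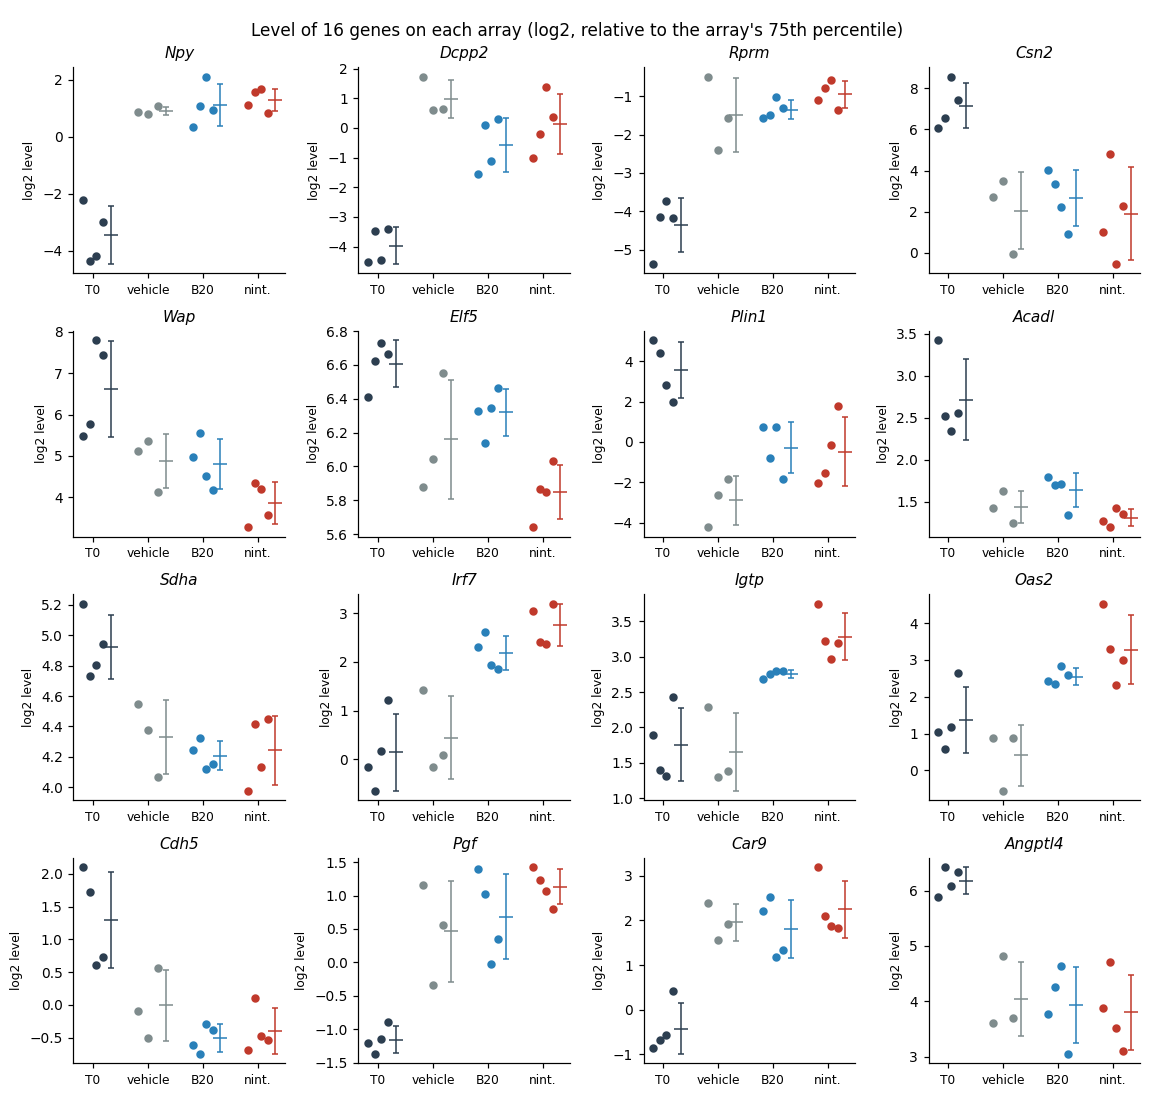
Levels of 16 genes on each array (log2 relative to the 75th percentile of the array), with 1 point per array in order of replicate number and the group mean ± SD beside them (n = 4 T0, 3 vehicle, 4 B20, 4 nintedanib). Npy, Dcpp2, Rprm, Pgf and Car9 are higher, and Csn2, Wap, Elf5, Acadl and Angptl4 lower, in all nintedanib tumours than in all T0 tumours.

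Fat cell genes fell as a group. Of 20 adipocyte markers tested, 20 were lower and 17 were called lower (85%, against 4.62% of all genes), with a median difference of -3.20. The mean level of the list was 4.73, 4.18, 2.79 and 2.24 in T0 replicates 1 to 4 and -0.58, -0.27, 0.82 and 1.82 in nintedanib replicates 1 to 4. All T0 tumours were above all treated tumours, and the gap between T0 replicate 4 and nintedanib replicate 4 was small. Vehicle tumours had a median of -4.76 against T0. Plin1, which coats lipid droplets, stood at -2.03, -1.57, -0.13 and 1.798 after nintedanib and at 5.04, 4.41, 2.83 and 1.97 at T0. Its difference was -4.05 ± 0.92 (SE, adjusted p = 0.0157, limma), and without nintedanib replicate 1 the adjusted p was 0.0515. Other fat genes among those that fell most were Adrb3, Pck1 and Cd36, a fatty acid transporter (-3.72 ± 0.67). Adrb3, the beta-3 adrenergic receptor that starts lipolysis, differed by -4.07 ± 0.95 on its brightest probe and by -1.78 on the other. Pck1, the gluconeogenic enzyme that fat uses to make glycerol, differed by -3.94 ± 0.98. Fabp4, the fatty acid carrier of fat cells, fell by 3.48 on the log2 scale, and Lpl, the lipase that frees fatty acids from lipoproteins, by 3.16. Sucnr1, a succinate receptor found on fat cells, fell by 4.39. It was well above background on 1 of 4 nintedanib arrays and on 0 vehicle arrays. Its difference from T0 after nintedanib ranged from -5.18 to -2.04 over the other ways of processing and choices of arrays. In vehicle tumours the differences from T0 were -6.46 for Plin1, -6.77 for Adrb3, -6.998 for Pck1, -5.02 for Cd36, -4.89 for Fabp4 and -6.33 for Sucnr1. None of these 6 genes was called in the direct comparison of nintedanib with vehicle (limma).

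The fat genes rested on the T0 slide of replicates 1 and 2 more than on the other. Against those replicates alone 20 of 20 markers were called, and against replicates 3 and 4 alone 0 were, with medians of -4.19 and -2.32. Called members numbered 7 without nintedanib replicate 1, 9 without nintedanib replicate 2, 8 without T0 replicate 1 and 9 without T0 replicate 2. Adrb3 was not called without T0 replicate 1 or nintedanib replicate 1 (-3.61 and -3.82), nor Pck1 without T0 replicate 1 or 2 or nintedanib replicate 1 or 2 (from -3.48 to -3.77). Skeletal muscle markers moved in the same direction: 23 of 23 tested were lower with a median difference of -2.95, but 0 were called, and T0 tumours ranged from 0.51 to 6.004 in the mean level of the list. Nintedanib tumours ranged from -1.08 to 2.30. Of 11 brown fat markers 10 were lower and 1 was called (9.09%), Otop1, a proton channel (-2.38 ± 0.53, other probe -1.33). Called brown fat markers numbered 7 without T0 replicate 3, 5 without T0 replicate 4, 10 against T0 replicates 1 and 2 and 0 against replicates 3 and 4.

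Lipid synthesis and fatty acid oxidation genes fell together with the fat markers. In lipid synthesis, 8 of 15 members fell (53.3%, against 4.62% of all genes) and 0 rose, with a median of -1.27 (vehicle against T0, -1.28). Scd1, which puts the double bond into stearate, stood at 4.21, 4.43, 4.66 and 5.55 after nintedanib and at 7.57, 7.10, 6.78 and 6.09 at T0. The groups did not overlap, and the difference was -2.17 ± 0.38 (SE, adjusted p = 0.00548, limma), against -3.17 in vehicle tumours. Acacb, an acetyl-CoA carboxylase, fell by 2.75, Fasn, the fatty acid synthase, by 2.36, Acly, which supplies cytosolic acetyl-CoA, by 1.32, and Thrsp, a lipogenic regulator, by 1.59.

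In fatty acid oxidation, 8 of 21 fell (38.1%, against 4.62% of all genes) and 0 rose, with a median of -0.91 (vehicle against T0, -0.63). Acadl, an acyl-CoA dehydrogenase, was at 1.27, 1.20, 1.42 and 1.35 after nintedanib and at 3.42, 2.52, 2.34 and 2.56 at T0. The treated tumours were close to each other and all below T0, and T0 replicate 1 was the highest. The difference was -1.40 ± 0.21 (SE, adjusted p = 0.00359, limma), against -1.28 in vehicle tumours. The call after nintedanib held without each array in turn and against either T0 slide. Etfa and Etfdh, which pass electrons from fat oxidation to the respiratory chain, fell by 1.08 and 1.07, Hadhb, a subunit of the mitochondrial trifunctional protein, by 1.26, and Cpt2, which frees acyl-CoA in the matrix, by 1.13. Fabp3, a fatty acid carrier of muscle, differed by -4.00 ± 1.03 and was not called without T0 replicate 1 or 2 or nintedanib replicate 1 or 4 (from -3.46 to -4.06). Against T0 replicates 3 and 4 alone, 1 member of the lipid synthesis list and 2 of the oxidation list were called. Fatty acid oxidation had 3 called members with median scaling, 4 in a fit to the 8 arrays alone or without nintedanib replicate 1, 5 without T0 replicate 2, 13 without T0 replicate 3 and 12 without T0 replicate 4.

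Genes of the TCA cycle and the respiratory chain were lower in nearly all members by small amounts. In the TCA cycle list 22 of 22 members were lower and 9 were called, 40.9% against 4.62% of all genes. The 9 were Fh1, Pdhb, Sdha, Mdh2, Dld, Cs, Pcx, Sdhb and Sucla2. The list had a median of -0.73, against -0.68 in vehicle and -0.60 in B20 tumours. Pdhb, a subunit of pyruvate dehydrogenase, was at 3.43, 3.92, 3.74 and 3.91 after nintedanib and at 5.50, 4.35, 4.60 and 4.74 at T0. The groups did not overlap, with T0 replicate 1 apart from the other T0 tumours. The difference was -1.05 ± 0.22 (SE, adjusted p = 0.0111, limma), against -0.92 in vehicle tumours. Fh1, fumarase, differed by -0.84 ± 0.17.

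Of 74 subunits of the respiratory chain and ATP synthase, 72 were lower, 10 were called lower (13.5%, against 4.62% of all genes) and 0 higher. The median was -0.49 (vehicle, -0.34, and B20, -0.13). Sdha, the catalytic subunit of succinate dehydrogenase and so a member of both lists, was at 3.98, 4.42, 4.13 and 4.45 after nintedanib against 5.21, 4.73, 4.81 and 4.94 at T0. Its groups did not overlap, and the difference was -0.68 ± 0.16 (SE, adjusted p = 0.0196, limma), against -0.59 in vehicle tumours. The call was lost without nintedanib replicate 1 (-0.59, adjusted p = 0.0622) or T0 replicate 1 (-0.58, adjusted p = 0.0594). Ndufs1, the largest subunit of complex I, differed by -0.87 ± 0.19. Ppargc1a, a coactivator that drives mitochondrial biogenesis, differed by -0.57 and was not called (adjusted p = 0.292, limma). Of 15 genes of mitochondrial biogenesis 1 fell (6.67%), Tfb2m, a mitochondrial transcription factor (-0.78). Called subunits numbered 1 without T0 replicate 1, 1 without nintedanib replicate 1, 2 without nintedanib replicate 2, 4 without nintedanib replicate 4 and 6 without T0 replicate 4. They numbered 15 without nintedanib replicate 3, 20 without T0 replicate 3, 15 against T0 replicates 1 and 2 and 0 against replicates 3 and 4. In the TCA cycle list they were 2 without nintedanib replicate 1, 3 without T0 replicate 1 and 1 against T0 replicates 3 and 4. Scaling arrays by their median in place of the 75th percentile left 0 calls in both lists.

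Fat and muscle markers and these metabolic lists were highest on the same array. T0 replicate 1 had the highest mean level of the 15 arrays for adipocyte (4.73), skeletal muscle (6.004) and brown fat markers (3.16), and also for the TCA cycle (5.43), respiratory chain (6.49), fatty acid oxidation (4.66) and lipid synthesis lists (4.84). T0 replicate 4 was the lowest T0 tumour for adipocyte markers (2.24). For the respiratory chain it was above T0 replicates 2 and 3 (6.27 against 5.99 and 5.82). Some lists share members, such as Cd36 in the adipocyte and fatty acid oxidation lists. The range of the summed level of muscle markers was 105 to 4266 in T0 tumours and 29.2 to 376 in nintedanib tumours, in units of the 75th percentile signal, and that of adipocyte markers 528 to 2074 and 58.5 to 343. Brown fat markers ran from 28.2 to 676 at T0 and from 11.5 to 37.5 after nintedanib. No muscle marker tested was below background on all arrays of either group. Their part in the metabolic differences was not tested.

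**Figure D3:**
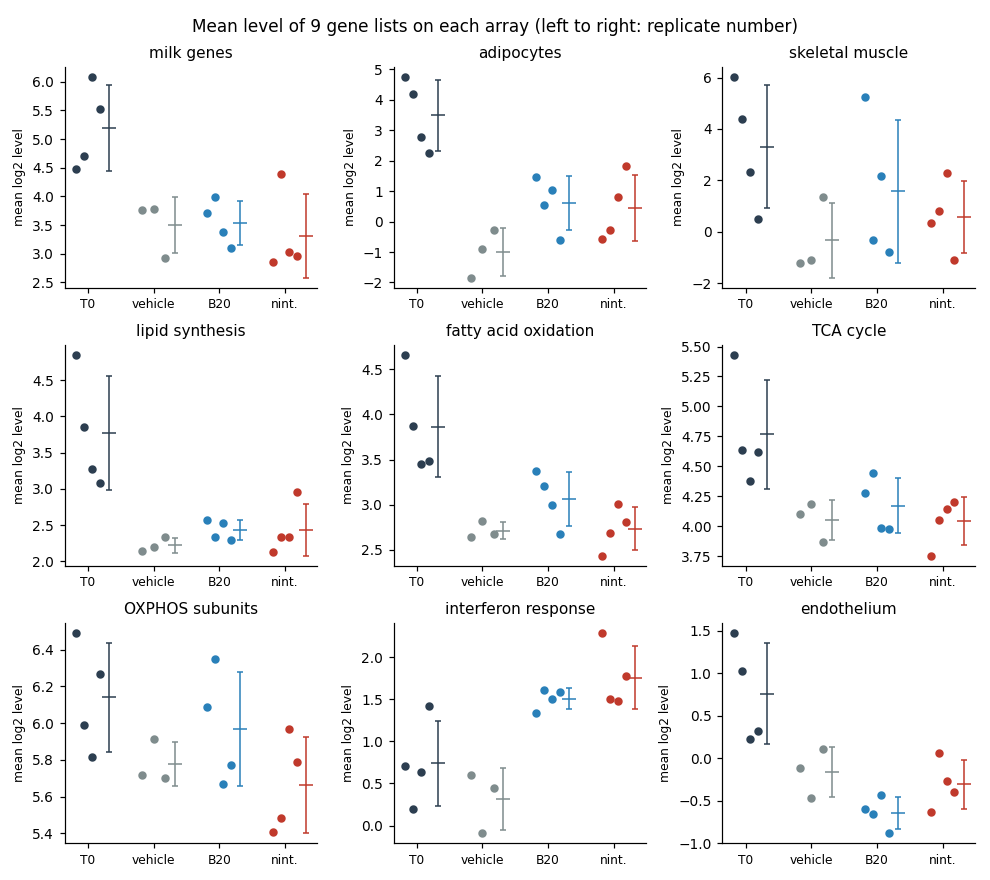
Mean log2 level of 9 gene lists on each array, 1 point per array in order of replicate number, with the group mean ± SD beside the points (n = 4 T0, 3 vehicle, 4 B20, 4 nintedanib). T0 replicate 1 is highest in the fat, muscle and metabolic panels, and all nintedanib tumours are above all T0 tumours in the interferon panel, where the closest values are 1.48 and 1.42.

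Glycolysis genes did not move in 1 direction. Of 24 tested, 12 were higher and 12 lower, with 1 called each way (4.17%, against 6.83% of all genes called higher and 4.62% lower). Eno2, the neuronal enolase, rose by 1.09 and Pfkfb3, which makes an activator of phosphofructokinase, fell by 1.52 (other probe, -0.81). Without nintedanib replicate 1 neither was called (0.88 and -1.61), and Pfkfb3 was not called without T0 replicate 1 or 2 or any other nintedanib array either (from -1.17 to -1.58). Hk2, a hexokinase, differed by -1.35 ± 0.51 (adjusted p = 0.1002, limma) and Slc2a1, the glucose transporter, by -0.14 ± 0.24. In the list of ketone body metabolism, Bdh1, which interconverts the ketone bodies, rose by 0.74, while Oxct1, which uses them, differed by -0.32 ± 0.16 and was not called. Bdh1 was not called without T0 replicate 1, 2 or 4 or any 1 nintedanib array (from 0.62 to 0.81).

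Among 25 hypoxia response genes, 3 rose (Car9, Cited2 and Adm) and 2 fell (Angptl4 and Ndrg1), and the list's median was 0.17. These are 12% and 8% of the list, against 6.83% of all genes called higher and 4.62% lower. Car9, a carbonic anhydrase on the cell surface, is a direct target of HIF. The 250 bases before its start (chr4:43506776-43507025 on the plus strand, RefSeq, GRCm38.p6) hold the core letters of a HIF site, ACGTG read on both strands, starting 18 bases before the start and given in capitals.
Car9: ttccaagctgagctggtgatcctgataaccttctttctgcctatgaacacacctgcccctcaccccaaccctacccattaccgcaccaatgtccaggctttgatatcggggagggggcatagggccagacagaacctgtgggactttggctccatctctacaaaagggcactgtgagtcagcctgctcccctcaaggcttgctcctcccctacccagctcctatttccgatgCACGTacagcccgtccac
These letters were found in 16.6% of all promoters of that length and in 13 of the 24 promoters (54.2%) of the 19 hypoxia genes matched. Car9 was at 3.19, 2.11, 1.88 and 1.83 after nintedanib and at -0.85, -0.68, -0.58 and 0.42 at T0. All treated tumours were above all T0 tumours, with nintedanib replicate 1 the highest. The difference was 2.68 ± 0.39 (SE, adjusted p = 0.00332, limma), a 6.39-fold higher signal, and vehicle tumours lay 2.38 above T0. Angptl4, a secreted lipase inhibitor that both hypoxia and PPAR signalling induce, was at 3.88, 4.71, 3.52 and 3.104 after nintedanib and at 5.88, 6.42, 6.08 and 6.33 at T0. Its groups did not overlap, and it fell by 2.37 on the log2 scale (SE 0.39, adjusted p = 0.00464, limma), with a vehicle difference from T0 of -2.13. The calls for Car9 and Angptl4 held without each array in turn and against either T0 slide, whereas that for Ndrg1, a stress-induced protein (-0.81), was lost without nintedanib replicate 3 or 4 or T0 replicate 1, 2 or 3 (differences from -0.67 to -0.825).

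Vessel genes fell. Of 28 endothelial markers, 27 were lower and 14 were called lower (50%, against 4.62% of all genes). The median was -1.18 (vehicle, -1.01, and B20, -1.51). Cdh5, the cadherin of endothelial junctions, was at -0.69, 0.10, -0.48 and -0.54 after nintedanib and at 2.10, 1.73, 0.61 and 0.73 at T0. All treated values were lower, and T0 replicates 1 and 2 lay above replicates 3 and 4. The difference was -1.69 ± 0.33 (SE, adjusted p = 0.0089, limma), against -1.30 in vehicle tumours (not called, adjusted p = 0.0549). Esam, an adhesion molecule of endothelium, differed by -1.54 ± 0.27, Sox17, a transcription factor of arteries, by -1.23 ± 0.25, and Ptprb, the vascular phosphatase that restrains Tie2, by -1.67 ± 0.37. Pecam1, a pan-endothelial adhesion molecule, differed by -0.39 and Emcn, a sialomucin of capillaries and veins, by -0.42, and neither was called. Of 13 markers of pericytes and smooth muscle, 2 fell (15.4%), Pdgfrb and Abcc9, a channel subunit of mural cells (-1.98). The number that fell was 5 without T0 replicate 4. Abcc9 was not called without T0 replicate 1 or 2 or nintedanib replicate 1, 2 or 4 (from -1.502 to -1.98). Called endothelial markers numbered 5 without nintedanib replicate 1, 5 without T0 replicate 1 and 7 without T0 replicate 2. They were 20 against T0 replicates 1 and 2 and 1, Esam, against replicates 3 and 4, 5 with median scaling and 4 in a fit to the 8 arrays alone.

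Among the 28 receptors and ligands of the drug's pathways, 1 rose (3.57%) and 5 fell (17.9%), against 6.83% of all genes called higher and 4.62% lower. Without T0 replicate 1 or 2 or nintedanib replicate 1, 3 or 4, the number that fell was 3. It was 7 against T0 replicates 1 and 2 alone and 0 against replicates 3 and 4 alone. With median scaling or in a fit to the 8 arrays alone it was 2. Of the receptors, Pdgfrb, the PDGF receptor of pericytes, was at -0.08, 0.28, -0.26 and 0.31 after nintedanib and at 1.54, 1.45, 0.77 and 1.00 at T0. Its groups did not overlap, and the difference was -1.12 ± 0.24 (SE, adjusted p = 0.0121, limma), against -0.96 in vehicle tumours (not called, adjusted p = 0.0505). Fgfr4 differed by -1.77 ± 0.41 (vehicle, -2.17), with its other probe at -0.42, and Nrp2, a coreceptor for VEGF, by -0.96 ± 0.26. Flt1, VEGF receptor 1, had levels of 0.35, 1.27, 0.32 and 0.25 against 2.999, 2.38, 1.23 and 1.09. Nintedanib replicate 2 overlapped the T0 range, and the difference was -1.38 ± 0.41 (SE, adjusted p = 0.0443, limma). The call for Flt1 was lost without T0 replicate 1 or 2 or without nintedanib replicate 1, 3 or 4 (differences from -1.02 to -1.31). Kdr, VEGF receptor 2, the main signalling receptor of endothelium, differed by -0.33 ± 0.25 on its brightest probe (adjusted p = 0.414, limma) and by -1.35 on the other. Differences of Fgfr1 (0.41 ± 0.31, probes from 0.053 to 1.35), Fgfr2 (-0.18 ± 0.23), Fgfr3 (0.13 ± 0.26), Flt4 (0.50 ± 0.83) and Pdgfra (-0.36 ± 0.22) were not called.

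Of the ligands, Pgf, placental growth factor, which binds Flt1, rose. It was at 1.42, 1.23, 1.06 and 0.80 after nintedanib and at -1.20, -1.37, -1.15 and -0.89 at T0. Both groups were tight and lay apart. The difference was 2.28 ± 0.33 (SE, adjusted p = 0.00325, limma), a 4.87-fold higher signal, and the vehicle tumours lay 1.62 above T0. Fgf10, an FGF made by stroma for epithelium, fell by 3.54 in the processed signal and by 1.65 with normexp and quantile normalisation, and vehicle tumours differed by -5.30. Vegfa, the ligand that B20 binds, differed by 0.54 ± 0.43 on its brightest probe, and its probes ranged from -0.25 to 0.54. In the list of angiogenic endothelium, which also holds Pgf, 3 of 18 genes rose, Pgf among them, and 3 fell. That is 16.7% each way, against 6.83% of all genes called higher and 4.62% lower. Against T0 replicates 3 and 4 alone 2 rose and 0 fell, and with median scaling 2 rose and 1 fell. Hey1, a Notch target of arteries, was at 4.96, 5.19, 5.15 and 5.04 after nintedanib and at 3.67, 3.81, 4.16 and 4.15 at T0, without overlap. It rose by 1.14 ± 0.17 (SE, adjusted p = 0.00325, limma), and vehicle tumours lay 0.84 above T0. Esm1, a marker of tip cells, was at -2.93, -0.9999, -1.12 and -2.26 against 1.13, -0.13, -0.03 and -0.79. Its groups did not overlap, and the difference of -1.88 ± 0.59 missed the threshold (adjusted p = 0.0561, limma).

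**Figure D4:**
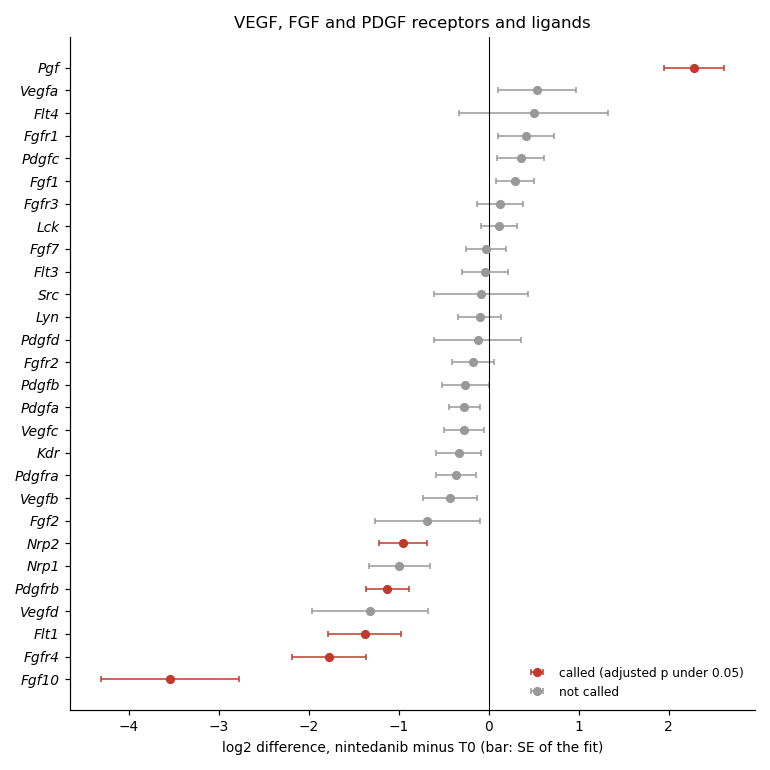
Log2 difference between nintedanib and T0 tumours (horizontal axis, bars give the SE of the fit, 4 arrays a group) for 28 receptors, ligands and kinases of the pathways that nintedanib blocks. Pgf stands alone to the right, and Pdgfrb, Fgf10, Fgfr4, Nrp2 and Flt1 are the members called lower.

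Interferon response genes rose. Of 37 tested, 35 were higher, 19 were called higher and 0 lower, against 6.83% of all genes called higher, and the median was 0.96. Vehicle tumours had a median of -0.26 against T0 and B20 tumours 0.72. Many of these genes are switched on through an element of GAAA, any 2 bases, and GAAA again, read on both strands. Upstream windows of 250 bases (RefSeq, GRCm38.p6) are given for a pair of members called higher, chr11:58199306-58199555 on the plus strand for Igtp and chr19:34583279-34583528 on the plus strand for Ifit3, with the matching letters in capitals.
Igtp: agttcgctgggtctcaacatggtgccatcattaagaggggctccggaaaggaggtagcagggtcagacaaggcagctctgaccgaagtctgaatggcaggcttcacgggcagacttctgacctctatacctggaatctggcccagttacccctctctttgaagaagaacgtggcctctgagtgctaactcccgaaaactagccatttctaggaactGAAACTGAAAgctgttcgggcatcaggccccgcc
Ifit3: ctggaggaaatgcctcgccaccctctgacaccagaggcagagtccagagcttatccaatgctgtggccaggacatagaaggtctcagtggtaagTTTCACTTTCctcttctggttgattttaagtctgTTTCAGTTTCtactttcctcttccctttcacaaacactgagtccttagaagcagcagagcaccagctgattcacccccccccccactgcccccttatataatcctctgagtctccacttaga
The match begins 34 bases before the start of Igtp, and those of Ifit3 begin 156 and 122 bases before its start. Of 31 promoters of the 27 list members matched, 16 held these letters (51.6%), as did 2.98% of all promoters of that length, and of the 19 called members 15 were matched and 10 held them.

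Irf7, the transcription factor that amplifies the response, was at 3.05, 2.40, 2.36 and 3.19 after nintedanib and at -0.15, -0.64, 0.17 and 1.22 at T0. All treated tumours were above all T0 tumours, and T0 replicate 4 was the highest T0 tumour. The difference was 2.60 ± 0.41 (SE, adjusted p = 0.00389, limma), a 6.06-fold higher signal, and vehicle tumours differed from T0 by 0.30 (adjusted p = 0.767) and B20 tumours by 2.03 (adjusted p = 0.0128). The direct difference between nintedanib and vehicle was 2.30 and was not called (adjusted p = 0.276, limma). Igtp, an interferon-induced GTPase that guards against intracellular pathogens, was at 3.75, 3.22, 2.97 and 3.19 against 1.89, 1.40, 1.31 and 2.43. It rose by 1.53 ± 0.27 (SE, adjusted p = 0.00589, limma), against -0.10 in vehicle tumours, and its groups did not overlap. Xaf1, a pro-apoptotic interferon target, rose by 1.56 ± 0.28, Oasl2, a member of the oligoadenylate synthetase family, by 2.37 ± 0.46, and Ifit3, an inhibitor of viral translation, by 1.64. The calls for Irf7, Xaf1 and Igtp held without each array in turn and against either T0 slide.

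Oas2, which makes the second messenger that activates RNase L, was at 4.53, 3.30, 2.31 and 2.997 after nintedanib and at 1.04, 0.57, 1.19 and 2.65 at T0. T0 replicate 4 lay within the treated range. The difference was 1.92 ± 0.50 (SE, adjusted p = 0.0281, limma), and it was not called without nintedanib replicate 1 or 2 or T0 replicate 1 or 2 (differences from 1.503 to 1.92). In the list, called members numbered 7 without nintedanib replicate 1, 12 without nintedanib replicate 4, 10 without T0 replicate 1 and 8 without T0 replicate 2. They were 26 against T0 replicates 1 and 2 and 3 against replicates 3 and 4, 28 higher and 1 lower without T0 replicate 4, 8 with median scaling and 5 in a fit to the 8 arrays alone.

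Antigen presentation and chemokine genes were mostly higher, with few calls. Of 9 MHC class II genes 9 were higher and 3 rose (33.3%, against 6.83% of all genes). They were H2-DMb1, which helps load peptides, H2-Ab1, the class II beta chain (0.94 ± 0.25), and Cd74, the invariant chain (0.86 ± 0.24). Called members of this list numbered 0 without nintedanib replicate 1, 0 without nintedanib replicate 4 and 1 without nintedanib replicate 2 or any of T0 replicates 1 to 3, and 5 without T0 replicate 4. Of 13 class I genes 2 rose (15.4%), H2-Q4 (1.24 ± 0.26) and Tap1, a subunit of the peptide transporter (1.28 ± 0.30). Lgals9, a galectin that binds the checkpoint receptor TIM-3, rose by 1.58 ± 0.30 (SE, adjusted p = 0.00785, limma), 1 of 10 genes of immune checkpoints (10%). Of 20 chemokines 16 were higher and 1 was called, Cxcl13, which draws B cells, a share no larger than the 6.83% of all genes. Without T0 replicate 4, 7 chemokines were called higher and 1 lower. No T0 array had Cxcl13 well above background, so in the processed signal it was at least 3.54-fold higher. This takes the dim group at no less than the lowest signal well above background on each array. Under normexp and quantile normalisation that bound does not hold, and the difference of Cxcl13 was 0.44 and not called (adjusted p = 0.0755, limma). Nor was it called without nintedanib replicate 1, 2 or 3 or T0 replicate 1 or 2 (from 2.38 to 2.73).

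Leukocyte markers themselves gave few calls. Of 18 macrophage markers 11 were higher and 0 were called in either direction, and of 18 T and NK cell markers 1 fell, a share near the 4.62% of all genes called lower. That gene was Foxp3, the factor of regulatory T cells. It was at -2.52, -2.93, -4.54 and -3.44 after nintedanib and at -1.86, -1.73, -1.76 and -1.30 at T0. The groups did not overlap, and the difference was -1.69 ± 0.36 (SE, adjusted p = 0.0121, limma), or -0.87 with normexp and quantile normalisation. For vehicle against T0 it was -0.61 and not called. Cytotoxic effectors had 0 of 11 called against T0 in nintedanib tumours. Gzme, a granzyme, differed by 3.09 ± 1.06 in nintedanib tumours (adjusted p = 0.0744, limma) and by 6.09 in vehicle tumours (adjusted p = 0.0121).

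Of 40 cell cycle genes, 33 were lower and 7 higher with a median of -0.26 (vehicle, 0.16), and 2 were called in each direction. That is 5% each way, near the 6.83% of all genes called higher and the 4.62% called lower. Ccnd1, cyclin D1, which starts entry into the cycle, was at 3.73, 4.15, 3.85 and 4.31 after nintedanib and at 2.93, 3.19, 3.25 and 2.95 at T0. The groups did not overlap, and it rose by 0.93 ± 0.17 (SE, adjusted p = 0.00701, limma), with a vehicle difference from T0 of 0.67 that was not called. Rrm2, a subunit of ribonucleotide reductase, was at 3.69, 3.97, 3.70 and 4.10 against 4.31, 5.01, 5.42 and 4.89. It fell by 1.04 on the log2 scale (SE 0.23, adjusted p = 0.0131, limma), with a vehicle difference from T0 of -0.46 that was not called. Tk1, thymidine kinase, rose by 1.13 and Mcm4, a replication helicase subunit, fell by 0.69. Neither call held without T0 replicate 2 (1.16 and -0.71) or nintedanib replicate 1 or 2 (0.82 and 1.12, -0.635 and -0.73), nor that for Tk1 without T0 replicate 1 (0.92) or that for Mcm4 without nintedanib replicate 3 (-0.65) or T0 replicate 3 or 4 (-0.56 and -0.63). The list's median was 0.12 against T0 replicates 1 and 2 and -0.58 against replicates 3 and 4.

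In the list of EMT and TGF-beta response, 1 of 20 genes rose (5%, against 6.83% of all genes) and 4 fell (20%, against 4.62%). Inhba, a subunit of activin, rose (2.42 ± 0.51, or 1.24 with normexp and quantile normalisation). Those that fell included the transcription factors Zeb2 (-1.12) and Twist1 (-1.48). Neither was called without nintedanib replicate 1 or T0 replicate 1 (-1.05 and -0.94 for Zeb2, -1.36 and -1.28 for Twist1). Twist1 was also not called without T0 replicate 2 or nintedanib replicate 2 (-1.32 and -1.37). Of 21 fibroblast and matrix genes 16 were lower and 1 was called, a share near the 4.62% of all genes called lower. Called members numbered 3 without T0 replicate 4. The called gene was Col3a1, a fibrillar collagen (-1.06 ± 0.31), which was not called without T0 replicate 1 or 2 or any 1 nintedanib array (from -0.92 to -1.16). In the list of endoplasmic reticulum and amino acid stress, limma called 0 of 21, and of ribosomal proteins 0 of 60, 55 of them lower with a median of -0.20.

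**Figure D5:**
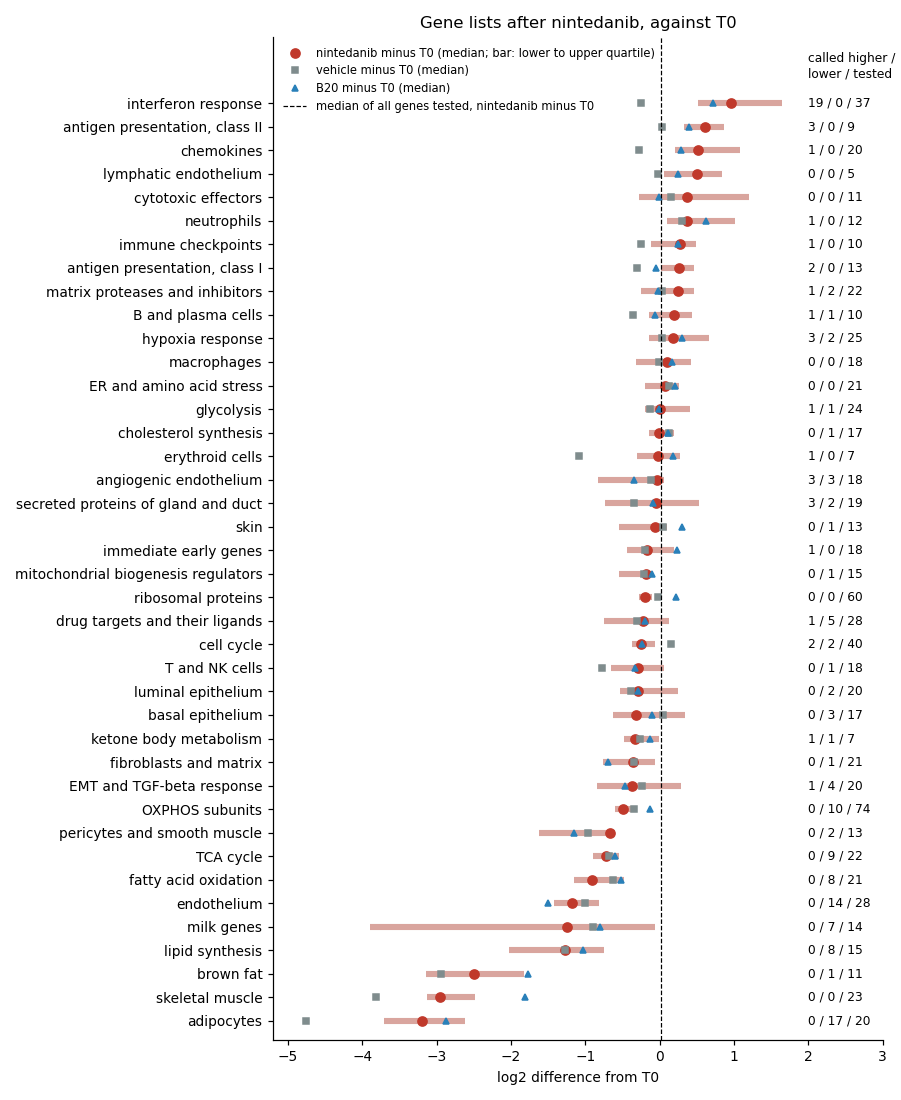
Median log2 difference from T0 for each of 40 gene lists: nintedanib (circles, with a bar from the lower to the upper quartile of the members), vehicle (squares) and B20 (triangles). Numbers at the right give members called higher and lower after nintedanib and members tested. Adipocyte, muscle and brown fat markers lie lowest in all 3 contrasts, and the interferon list is highest for nintedanib at 0.96 while its vehicle value is -0.26.

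Other genes among those that fell most lay outside the lists of the gland and its vessels. Mup19, a major urinary protein of the lipocalin family, was at -0.56, 0.33, 0.42 and -0.53 after nintedanib and at 5.31, 3.64, 2.63 and 3.96 at T0. No values overlapped, and it differed by -3.97 ± 0.63 (SE, adjusted p = 0.00394, limma), with -3.93 in vehicle tumours. Dct, an enzyme of melanin synthesis, was not well above background on any nintedanib array and was at least 13.9-fold lower in the processed signal. With normexp and quantile normalisation its difference was -1.14. In the processed signal vehicle tumours differed from T0 by -4.21 for Dct, -4.37 for Orm3 and -3.59 for Jakmip3. Orm3, an orosomucoid, fell by 4.13 (or 1.05) and Jakmip3 by 4.27 (or 1.38). Each was well above background on 1 of 4 nintedanib arrays and on all T0 arrays.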

How the data were processed

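Members, gene lists and tests were chosen with earlier results of these data known. The intensity used was the processed signal, from which Feature Extraction 10.7.3.1 had removed background before deposit, per the file headers. Flags for spots well above background and outlier spots are other values, 0 or 1, per the file headers. The authors' deposited table holds log2 values of unstated making. Values made here with normexp (offset 50) and quantile normalisation correlated with it at a median r of 0.9999, with column medians of 6.616 to 6.627, no centring by gene, and higher values for brighter spots. The files hold no mean signal, so normexp used the median signal.

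Control and outlier spots were left out, spots of a probe averaged on the log2 scale, and 82 missing probe values filled with the probe's mean over the other arrays. Each array was scaled to its 75th percentile. A probe entered if 3 or more of the 15 arrays had it well above background, and the brightest probe stood for a gene. No spot was saturated. RefSeq (GRCm38.p6) named 26056 of 55681 probes, giving 16111 of the genes tested a symbol. The precision rests on the number of arrays: the median SE of a difference was 0.269.

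Limma 3.58.1 in R 4.3.3 fitted 4 group means to the 15 arrays, two-sided. The fit was tested on simulated data with known changes. Named genes were the 12 largest called changes in each direction whose groups did not overlap and which were well above background on all arrays of the higher group, the up to 4 called members with the lowest p per list (where none, the 2 with the lowest p), the drug's receptors with Vegfa, and 9 genes put forward by earlier results or the topic of the study. Other genes named were called members, or were singled out after their values were seen: Krt18, Pecam1, Emcn, the Mup and Olfr families, Comp, Col11a1, Col9a2, Col9a3, Tnn, Cnmd, Apol9a, Apol9b and Cdkn2a. Replicate numbers were checked for pairing: deviations of same-numbered nintedanib and T0 arrays correlated at -0.0723 to 0.174, over 0.1 in 1 of 4 pairs, so they were not treated as pairs. Alternatives covered background correction, scaling, the authors' values, the filter, the probe rule, slide, array weights, the arrays fitted, and leaving out each array.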

Additional observations from a re-analysis of the deposited data

Results flagged for a closer look

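Levels of 1 array stood apart from the other arrays of their group by Dixon's criterion in 12 of 336 groups tested (128 genes and 40 list means, in the nintedanib and T0 arrays), where chance gives about 5%. Nintedanib replicate 4 was apart for Olfr1457 (-0.46) and Il20ra (-3.03), nintedanib replicate 3 for Fgfr4 (-3.71) and Tfb2m (1.99), nintedanib replicate 1 for Adamts9 (-2.54) and the mean level of skin markers (-1.85), and nintedanib replicate 2 for Flt1 (1.27) and the mean level of milk genes (4.40). T0 replicate 2 was apart for Cited2 (3.66), T0 replicate 1 for Cd79a (-6.24), T0 replicate 3 for H2-DMb1 (2.31) and T0 replicate 4 for the mean level of chemokines (0.26).

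For some results the nintedanib tumours all lay to one side of the T0 mean and the vehicle tumours all to the other. They were Oas2 (1.92 for nintedanib and -0.96 for vehicle, each against T0), the mean level of the interferon response list (1.02 and -0.42), of class I antigen presentation (0.33 and -0.28), of the cell cycle (-0.19 and 0.18) and of immune checkpoints (0.22 and -0.36). For Oas2 the direct difference between nintedanib and vehicle was 2.88 and was not called (adjusted p = 0.276, limma). For the list means the difference was not tested.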

How the results depend on the processing

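Against the 3210 genes called (1915 higher, 1295 lower), median scaling gave 1364 (845 and 519), the slide as a random block 2031 (734 lower), a fit to only the 8 arrays 1456 (961 and 495), array weights 7927 (4679 and 3248), normexp with the 75th percentile 1133 higher, T0 replicates 1 and 2 alone 5041 (3084 and 1957), and T0 replicates 3 and 4 alone 1044 (547 and 497). Leaving out 1 array gave 1613 to 3919 called, 1009 to 2641 higher and 579 to 1682 lower. With the replicate number as a replicate block, limma called 0 genes in each direction, and 2 of 4 T0 arrays correlated best with the nintedanib array of their own number. The cause of these shifts was not tested.

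Of 128 named genes 104 were called, 63 of them without each array in turn and 26 under all 22 alternatives other than the replicate block. Signs that turned belonged to genes not called: with T0 replicates 3 and 4 alone Flt4 -0.40, Fgfr2 0.11 and Ppargc1a 0.067, with T0 replicates 1 and 2 alone Fgfr1 -0.043, Fgfr3 -0.028 and Slc2a1 0.047, with normexp and the 75th percentile Flt4 -0.19, with array weights Slc2a1 0.041. Leaving out 1 array, Fgfr3 ranged from -0.014 (without nintedanib replicate 2) to 0.26 and Slc2a1 from -0.30 to 0.074 (without nintedanib replicate 3). Genes near background have sizes that depend on the background correction.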

Other observations

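The genes given here were picked after their values were seen, so their calls describe these genes alone. Among genes known from cartilage and tendon matrix, Comp differed from T0 by 2.87 ± 0.39 (SE, adjusted p = 0.00238, limma), Col11a1 by 2.65 ± 0.36 and Col9a2 by 1.45 ± 0.31, and vehicle tumours differed by 1.10, 2.21 and 1.33. The calls for Comp, Col11a1 and Col9a2 were lost under no alternative other than the replicate block. Col9a3 (1.05 ± 0.28), Tnn (2.77 ± 0.72) and Cnmd (2.71 ± 0.68) were called too, but each lost its call under several alternatives: Col9a3 was not called under median scaling (adjusted p = 0.148, limma), nor Tnn under normexp and quantile normalisation (0.40, adjusted p = 0.273), nor Cnmd without T0 replicate 1 (adjusted p = 0.063). No T0 array had Tnn well above background, so in the processed signal it was at least 2.87-fold higher, a bound that does not hold with normexp. Cnmd was well above background on 2 of 4 T0 arrays, and with normexp and quantile normalisation it differed by 1.30. Apol9a and Apol9b, apolipoprotein L genes that interferon induces, rose by 2.79 ± 0.44 and 2.998 ± 0.47, and vehicle tumours differed from T0 by 0.45 and 0.53. These 2 are close copies, and their probes may not tell them apart.

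Cdkn2a, which encodes cell cycle inhibitors, rose by 3.08 ± 0.64 (SE, adjusted p = 0.0106, limma) in nintedanib tumours, and vehicle tumours lay 3.47 above T0. Against T0 replicates 3 and 4 alone it differed by 2.49 and was not called (adjusted p = 0.080). All 8 major urinary protein genes tested were lower, 4 of them called, with a median of -2.60 and near-identical sequences that probes may share. Of 261 olfactory receptor genes, most of them dim, 45 were called higher and 3 lower in the processed signal, against 6.83% of all genes called higher and 4.62% lower. The counts were 21 and 1 with normexp and quantile normalisation, 5 and 3 with normexp and the 75th percentile (median -0.12 in place of 0.40), 86 and 4 against T0 replicates 1 and 2, and 8 and 2 against replicates 3 and 4. Calls higher numbered 18 to 21 without T0 replicate 1 or 2 or nintedanib replicate 1, 3 or 4, and 74 without T0 replicate 3.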
